A study of Homo sapiens with 4 samples.

Results

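The genes described here are 41 enzymes of nucleotide, serine and one-carbon metabolism, out of 32673 genes listed in an RNA sequencing table of a leukaemia cell line and its drug-resistant derivative. They were taken by symbol for their biochemical role, and all 41 symbols were found in the table. They cover the 3 enzymes of serine synthesis, 6 of the folate cycle, 3 of the methionine cycle, 10 that supply or remove deoxynucleotides, 12 of purine synthesis, 2 of purine salvage and 5 of pyrimidine synthesis.

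TF1 is a human erythroleukaemia cell line that depends on growth factor, and TF1-BA cells are TF1 cells that carry the p210 form of the BCR-ABL fusion kinase from a retrovirus. TF1-BAR cells were derived from TF1-BA cells by prolonged culture with the kinase inhibitor imatinib and are resistant to it. RNA was sequenced from 2 libraries of TF1-BA cells and 2 of TF1-BAR cells, and the comparison asks how the transcripts of resistant cells differ from those of sensitive cells. By the labels, cells of both lines grew with 10% serum and 2 ng/ml GM-CSF, a growth factor of the parental line (the study's methods give another concentration), and 10000000 cells were taken for each replicate. The labels describe culture of TF1-BAR cells with 2 uM imatinib without stating whether the medium held it at RNA extraction, so that resistance and drug exposure cannot be told apart. The TF1-BAR libraries are titled as vector samples, so an effect of a control vector, if they carry one, is part of every difference given here. The comparison is of 1 resistant line with 1 sensitive line, and nothing states that the replicates were separate cultures, so the p-values measure the spread between these libraries, which may be technical.

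Dividing cells build nucleotides from glucose, glutamine, glycine and one-carbon units carried on folate. Serine, made from a glycolytic intermediate by PHGDH, PSAT1 and PSPH, donates its side chain to folate through the SHMT enzymes, and the carbon is then used for purine rings, for thymidylate and, through methionine, for methylation. Ribonucleotide reductase turns ribonucleotides into deoxynucleotides for DNA. Many antileukaemic drugs act on these enzymes or are activated by them, among them hydroxyurea, cytarabine and the thiopurines.

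The libraries held between 15465497 and 18042299 fragments, of which 98.7% lay in listed genes, and the members together received between 85721 and 105280 fragments per library. Replicates correlated more closely (Pearson r across genes, 0.983 and 0.979) than libraries of different lines (0.946 to 0.956), and replicates varied beyond counting error (mean chi-square of 4.07 between the TF1-BA and 7.00 between the TF1-BAR libraries, where counting error alone gives about 1). All 10 markers of the parental line were measured, from HBG1 at 1.78 FPKM to GATA1 at 75.4 FPKM, and the 10 markers together stood at 330 and 338 FPKM in TF1-BA and at 379 and 404 FPKM in TF1-BAR libraries. Of these markers KIT, CD33 and TAL1 were higher in TF1-BAR cells (log2 fold changes of 1.12, 0.87 and 0.76, limma adjusted p of 0.00409, 0.00555 and 0.00976), and the other 7 did not pass. FPKM is fragments scaled to transcript length and library size, a level that can be compared between genes. Of 10 markers of other cell types 9 were listed, with a summed level of 24.7 to 27.3 FPKM, nearly all of it from PECAM1, which blood cells share with endothelium. CD3E, CD14, NCAM1 and COL1A2 were at or near 0 in all 4 libraries.

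Across the members, levels ranged from PSAT1, at a mean of 284 FPKM over the 4 libraries, down to ADSL, at 0.497 FPKM, and the order of the levels was led by PSAT1, IMPDH2, MAT2A, AHCY and MTHFD2. Of the 41 members, 40 had a mean of at least 0.5 FPKM and were tested with limma on log2(FPKM + 0.5), with Benjamini-Hochberg adjustment over the 15519 genes tested. A gene is said to have risen or fallen in TF1-BAR cells when its adjusted p was under 0.05. By this rule 7 members rose, 9 fell and 24 did not pass. The 16 members that passed were 40.0% of those tested, where 26.9% of all genes tested passed. The share that rose, 17.5%, stood beside 16.3% of all genes, and the share that fell, 22.5%, beside 10.5% of all genes. The median log2 fold change (TF1-BAR minus TF1-BA) was -0.05 over the members and 0.07 over all genes tested.

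**Figure D1:**
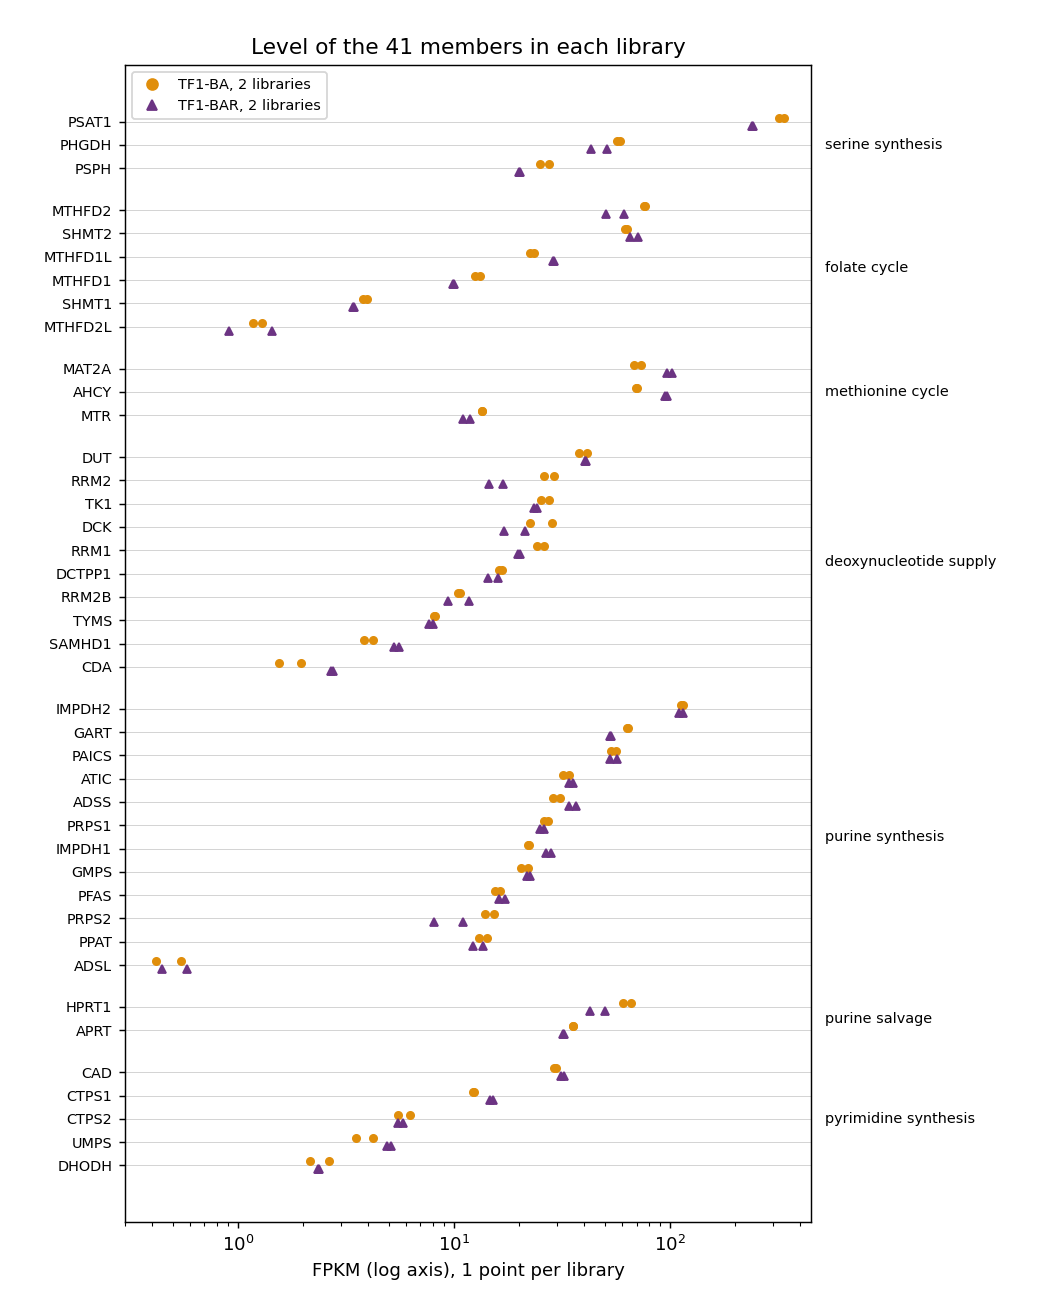
Level of the 41 members in each library, in FPKM on a log axis, with 1 point per library (circles TF1-BA, triangles TF1-BAR) and genes grouped by role. PSAT1 is the highest in every library (239 to 335 FPKM) and ADSL the lowest (0.418 to 0.580 FPKM). For 29 of the 40 tested members the points of the lines do not overlap, 72.5% beside 69.3% of all genes tested.

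The changes were small. No member reached the added threshold of an absolute log2 fold change of 1, which 4.75% of all genes tested reached with an adjusted p under 0.05, and limma voom on recovered fragments also gave 0. At an unadjusted p under 0.05 there were 21 members, 52.5% of those tested against 42.2% of all genes. The libraries of the lines did not overlap for 29 members, 72.5% against 69.3% of all genes. Of the 40 tested members 12 were higher and 17 lower in TF1-BAR cells without overlap, where 40.9% and 28.4% of all genes were. The split changed between settings. After upper-quartile scaling 2 rose and 12 fell, and after quantile normalization 4 rose and 8 fell. With the trend with GC content and length removed 6 rose and 13 fell, and on the TPM scale 8 rose and 2 fell. Of all genes 12.2%, 13.2%, 14.5% and 13.8% rose in these settings, and 14.3%, 12.4%, 15.5% and 5.59% fell. The TPM fit also tested more genes (20364 against 15519, with 41 members), and the part of the scaling in its counts was not tested. The share of members that fell was 32.5% with the GC content and length trend removed, beside 15.5% of all genes, but 4.88% on the TPM scale, beside 5.59%, and 5.0% with no trend of the spread in limma, beside 7.47%. Under these last settings the members did not exceed all genes in the share that fell. The calls also changed with the library left out, while the fold changes of the clearest members moved little. Without TF1-BA replicate 1 no member passed in limma (10 had an unadjusted p under 0.05), and without TF1-BA replicate 2 none passed (13 unadjusted), while all genes gave 144 and 42 calls. Without TF1-BAR replicate 1, 4 members rose and 7 fell, 27.5% of the members against 20.5% of all genes, whereas the omission of TF1-BAR replicate 2 left only AHCY, 2.5% against 6.62% of all genes, with 18 members at an unadjusted p under 0.05. Over these 4 fits the log2 fold change lay between 0.43 and 0.55 for MAT2A, between 0.43 and 0.46 for AHCY, between -0.90 and -0.69 for RRM2 and between -0.47 and -0.40 for PSAT1.

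**Figure D2:**
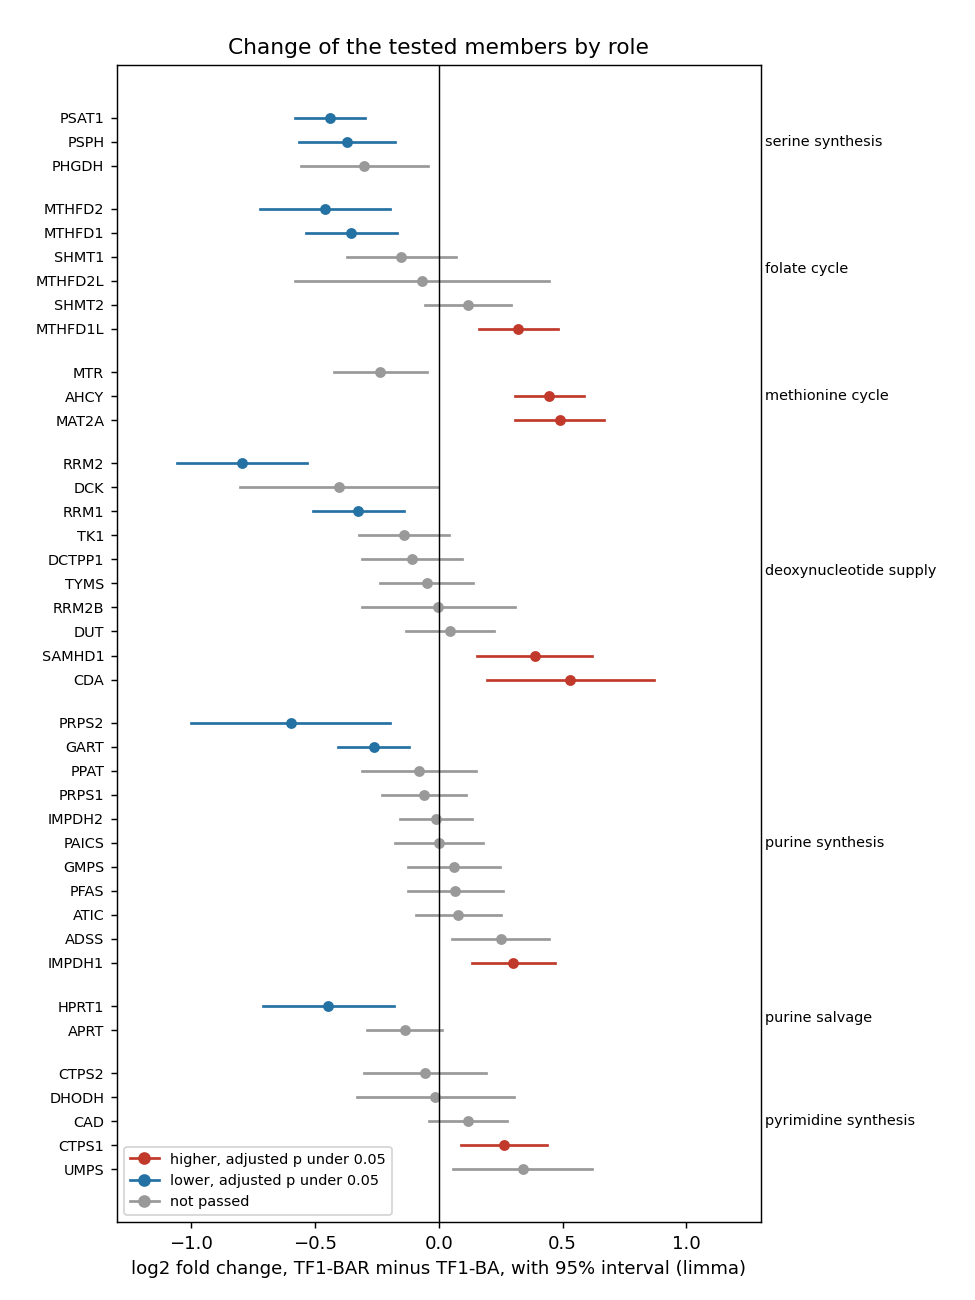
Log2 fold change of the 40 tested members, TF1-BAR minus TF1-BA, with 95% intervals from limma, grouped by role and coloured by whether the adjusted p was under 0.05. Serine synthesis lies to the left of 0, MAT2A and AHCY lie to the right, and RRM2 has the lowest value (-0.80) of the members.

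All 3 enzymes of serine synthesis were lower in both TF1-BAR libraries than in either TF1-BA library, as were 28.4% of all genes tested. Of the 3, 2 fell, where 10.5% of all genes tested did. PSAT1, the aminotransferase of the middle step and the most abundant member, stood at 335 and 319 FPKM in TF1-BA and at 243 and 239 FPKM in TF1-BAR libraries. It fell by 0.44 on the log2 scale (SE 0.0549, limma adjusted p = 0.00976), a fold of 0.738. The gene (ENSG00000135069) lies at chr9:78297143-78330093 on the plus strand of GRCh38. PSPH, the phosphatase that releases serine, stood at 27.5 and 25.0 FPKM in TF1-BA and at 20.0 and 20.3 FPKM in TF1-BAR libraries. It fell by 0.37 (SE 0.0754, limma adjusted p = 0.0267). PHGDH, the dehydrogenase that commits carbon to the pathway, stood at 56.8 and 58.9 FPKM in TF1-BA and at 51.3 and 42.9 FPKM in TF1-BAR libraries. Its log2 fold change of -0.30 did not pass (limma adjusted p = 0.0833), and its TF1-BAR libraries differed from each other by 1.20-fold, more than those of PSAT1 (1.01-fold). Leaving out TF1-BAR replicate 1 brought PHGDH past the threshold, at -0.43 with a limma adjusted p of 0.0334, whereas omitting the other TF1-BAR library gave -0.17. Its adjusted p ranged from 0.0154 to 0.304 over all alternatives.

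The promoters of members that moved are shown for their sequence motifs, for the 3 members that passed and whose 250 bases before the start contain no annotated exon base or base of the listed gene. The sequences are those of RefSeq on GRCh38.p14, in the sense of the gene, with the CCAAT box in capitals (CCAAT, or ATTGG on the other strand).
PSAT1, chr9:78296875-78297124, plus strand: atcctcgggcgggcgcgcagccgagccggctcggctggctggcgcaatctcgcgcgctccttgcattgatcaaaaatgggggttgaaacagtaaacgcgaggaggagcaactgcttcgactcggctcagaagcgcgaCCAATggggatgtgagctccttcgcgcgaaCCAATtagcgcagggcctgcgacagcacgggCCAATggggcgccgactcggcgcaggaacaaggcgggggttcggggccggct
RRM1, chr11:4094435-4094684, plus strand: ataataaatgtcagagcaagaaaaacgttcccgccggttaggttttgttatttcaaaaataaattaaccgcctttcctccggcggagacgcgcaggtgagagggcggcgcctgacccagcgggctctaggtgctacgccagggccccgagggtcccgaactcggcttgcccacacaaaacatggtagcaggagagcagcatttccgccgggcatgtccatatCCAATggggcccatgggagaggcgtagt
AHCY, chr20:34311803-34312052, minus strand: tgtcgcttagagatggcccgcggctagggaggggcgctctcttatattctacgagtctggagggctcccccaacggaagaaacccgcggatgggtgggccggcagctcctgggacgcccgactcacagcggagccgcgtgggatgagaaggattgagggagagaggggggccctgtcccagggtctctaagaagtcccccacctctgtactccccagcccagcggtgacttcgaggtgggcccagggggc
PSAT1 holds 3 CCAAT boxes, at 113, 83 and 52 bases before the start, RRM1 holds 1, at 28 bases, and AHCY holds none.

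A promoter sequence was found for 36 of the 41 members (not for PSPH, SHMT2, RRM2B, ADSL and IMPDH2), and the CCAAT box, chosen after the sequences were read, was present in 15 of them, beside 32.0% of 35116 promoters. It was present in 6 of the 8 matched members that fell, in 3 of the 7 that rose and in 6 of the 21 that did not pass. At least 3 copies were held by PSAT1, MTR, RRM2 and GART, beside 2.93% of all promoters. In RRM2 they lay at 123, 93 and 66 bases before the RefSeq start, which is 411 bases past the start listed in the table, in a window that is annotated exon throughout, and MAT2A, which rose, held 1 at 88 bases. The E-box CACGTG, a site of MYC and related factors, was present in 7 of the 36, beside 6.34% of all promoters, with 1 among the 7 that rose and 1 among the 8 that fell. The ATF4 site TGATGNAA was present in 1 of the 36, MTHFD1L, beside 3.14% of all promoters. One of the E2F sites TTTCCCGC, TTTCGCGC, TTTGCCGC and TTTGGCGC was present in MTR, TYMS and PRPS2, beside 2.79% of all promoters. The windows of PHGDH, MTHFD2L, PAICS, PFAS and DCK lie more than 1000 bases from the start that the table lists for the gene, and among the other 31 the CCAAT box was present in 14 and the E-box in 6. Both strands were searched for each motif, matches of different motifs that share letters were each counted, and a match or its absence describes only the letters in this window.

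Within the folate cycle, 1 of 6 members rose and 2 fell, beside 16.3% and 10.5% of all genes tested. MTHFD1 of the cytosol and its mitochondrial relative MTHFD1L moved in opposite directions. MTHFD2, the mitochondrial dehydrogenase and cyclohydrolase, stood at 76.9 and 76.1 FPKM in TF1-BA and at 61.0 and 50.5 FPKM in TF1-BAR libraries. It fell by 0.46 (SE 0.102, limma adjusted p = 0.0323), and the TF1-BAR libraries differed by 1.21-fold. MTHFD1, the trifunctional enzyme of the cytosol, stood at 13.2 and 12.5 FPKM in TF1-BA and at 10.0 and 9.90 FPKM in TF1-BAR libraries and fell by 0.35 (SE 0.0713, limma adjusted p = 0.0264). MTHFD1L, the mitochondrial formate producer, moved the other way, from 23.4 and 22.6 FPKM in TF1-BA to 28.8 and 28.9 FPKM in TF1-BAR libraries. It rose by 0.32 (SE 0.0622, limma adjusted p = 0.0240). The exchange of serine and glycine is catalysed by SHMT2 in mitochondria and SHMT1 in the cytosol. SHMT2 stood at 61.9 and 63.0 FPKM in TF1-BA and at 65.0 and 70.8 FPKM in TF1-BAR libraries. SHMT1 was more than an order of magnitude lower, at 3.94 and 3.80 FPKM in TF1-BA and at 3.42 and 3.46 FPKM in TF1-BAR libraries. Neither passed (limma adjusted p = 0.242 and 0.243). MTHFD2L, the scarce relative of MTHFD2, stood at 1.17 and 1.29 FPKM in TF1-BA and at 1.44 and 0.906 FPKM in TF1-BAR libraries, so that its groups overlapped.

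In the methionine cycle 2 of 3 members rose, where 16.3% of all genes tested did. MAT2A, which makes the methyl donor S-adenosylmethionine, stood at 73.6 and 67.9 FPKM in TF1-BA and at 102 and 96.7 FPKM in TF1-BAR libraries. It rose by 0.49 on the log2 scale (SE 0.0693, limma adjusted p = 0.0121), a fold of 1.40, which among the members only the low-level CDA exceeded. AHCY, which clears the product of methylation, S-adenosylhomocysteine, stood at 69.9 and 70.0 FPKM in TF1-BA and at 94.7 and 96.3 FPKM in TF1-BAR libraries. It rose by 0.45 (SE 0.0539, limma adjusted p = 0.00908), a fold of 1.36. AHCY lies on chromosome 20, where the median log2 fold change of the 440 genes tested was 0.39, and it stood 0.06 above that median. MAT2A, on chromosome 2, stood 0.44 above the median of its chromosome. The part of the chromosome in the difference of AHCY was not tested. MTR, methionine synthase, stood at 13.6 and 13.5 FPKM in TF1-BA and at 11.8 and 11.0 FPKM in TF1-BAR libraries, a log2 fold change of -0.24 that did not pass (limma adjusted p = 0.0712).

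Among the deoxynucleotide enzymes 2 rose, 2 fell and 6 did not pass, with 40.0% that passed against 26.9% of all genes tested. Both subunits that form the ribonucleotide reductase of dividing cells fell. RRM2, the small subunit that is made in S phase and is the target of hydroxyurea, stood at 29.1 and 26.1 FPKM in TF1-BA and at 16.8 and 14.6 FPKM in TF1-BAR libraries. It fell by 0.80 on the log2 scale (SE 0.102, limma adjusted p = 0.0101), a fold of 0.576, the lowest of the members, and 3.56% of all genes tested had a fold change at or below it. The gene (ENSG00000171848) lies at chr2:10122328-10131419 on the plus strand. RRM1, the large subunit, stood at 26.2 and 24.2 FPKM in TF1-BA and at 20.2 and 19.8 FPKM in TF1-BAR libraries and fell by 0.33 (SE 0.0716, limma adjusted p = 0.0317). RRM2B, the small subunit used outside S phase and in DNA repair, stood at 10.7 and 10.4 FPKM in TF1-BA and at 11.8 and 9.41 FPKM in TF1-BAR libraries. Its groups overlapped, with a 95% interval of the log2 fold change from -0.31 to 0.31.

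The enzymes of thymidylate supply did not pass, and their values lay close together. TYMS, thymidylate synthase and a target of antifolates, stood at 8.15 and 8.09 FPKM in TF1-BA and at 7.99 and 7.68 FPKM in TF1-BAR libraries. Of the exon bases of TYMS, 47.9% are also exon on the opposite strand, in ENOSF1 and TYMSOS, and whether the counting used the strand is not given in the sources used here, so its value is uncertain. For DUT, MTHFD2, MAT2A, MTHFD1 and SAMHD1 the share on the opposite strand was between 9.86% and 14.5%. TK1, the salvage kinase of thymidine, stood at 25.3 and 27.4 FPKM in TF1-BA and at 23.6 and 24.1 FPKM in TF1-BAR libraries. DUT, which removes dUTP, stood at 41.1 and 37.7 FPKM in TF1-BA and at 40.9 and 40.5 FPKM in TF1-BAR libraries. DCTPP1, which clears modified dCTP, stood at 16.2 and 16.6 FPKM in TF1-BA and at 14.4 and 16.0 FPKM in TF1-BAR libraries, and 41.2% of its exon bases are shared with ZNF771 on the opposite strand. The limma adjusted p of these 4 genes ranged from 0.202 for TK1 to 0.654 for TYMS.

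A further 3 members handle deoxynucleosides and deoxynucleotides that matter for cytarabine and related drugs. DCK, the kinase that activates cytarabine, stood at 28.5 and 22.5 FPKM in TF1-BA and at 21.2 and 17.1 FPKM in TF1-BAR libraries. The replicates differed by 1.26-fold in TF1-BA and by 1.24-fold in TF1-BAR libraries, and the log2 fold change of -0.40 did not pass (limma adjusted p = 0.117). With the replicate number as a block, DCK passed, at the same fold change and a limma adjusted p of 0.0250, within a range of 0.0166 to 0.426 over all alternatives. With each library left out in turn its log2 fold change lay between -0.57 and -0.24, and it passed in none of these 4 fits. CDA, the deaminase that inactivates cytarabine, stood at 1.96 and 1.54 FPKM in TF1-BA and at 2.77 and 2.71 FPKM in TF1-BAR libraries, on only 23 to 42 fragments. It rose by 0.53 (SE 0.131, limma adjusted p = 0.0412), and passed under only 6 of 12 alternative settings that kept all libraries. SAMHD1, the hydrolase of deoxynucleotides, stood at 4.20 and 3.82 FPKM in TF1-BA and at 5.54 and 5.26 FPKM in TF1-BAR libraries. It rose by 0.39 (SE 0.0904, limma adjusted p = 0.0363), and on chromosome 20 this equals the median of the chromosome (-0.0027 after the median was subtracted). The part of the chromosome in this difference was not tested.

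In purine synthesis 11 of 12 members were tested, of which 1 rose, 2 fell and 8 did not pass. The share that passed, 27.3%, was close to the 26.9% of all genes tested. PRPS2, one of the synthetases of phosphoribosyl pyrophosphate, stood at 15.3 and 13.9 FPKM in TF1-BA and at 11.0 and 8.10 FPKM in TF1-BAR libraries. It fell by 0.60 (SE 0.156, limma adjusted p = 0.0479), with TF1-BAR libraries 1.36-fold apart, and leaving out the first or the second of them gave -0.81 or -0.39. PRPS1, its close relative on the same chromosome, stood at 27.3 and 26.1 FPKM in TF1-BA and at 26.2 and 25.0 FPKM in TF1-BAR libraries and did not pass (limma adjusted p = 0.533). GART, which carries 3 steps of the pathway in 1 protein, stood at 63.7 and 63.4 FPKM in TF1-BA and at 52.7 and 53.0 FPKM in TF1-BAR libraries. It fell by 0.26 (SE 0.0551, limma adjusted p = 0.0285), the smallest fall that passed.

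The other enzymes on the way to inosine monophosphate did not pass. PPAT, the amidotransferase of the committed step, stood at 14.2 and 13.0 FPKM in TF1-BA and at 13.6 and 12.2 FPKM in TF1-BAR libraries. PAICS, whose gene starts next to that of PPAT on the opposite strand of chromosome 4, stood at 56.0 and 53.5 FPKM in TF1-BA and at 57.0 and 52.6 FPKM in TF1-BAR libraries. PFAS stood at 15.5 and 16.4 FPKM in TF1-BA and at 16.1 and 17.3 FPKM in TF1-BAR libraries. ATIC, which closes the ring, stood at 34.1 and 32.0 FPKM in TF1-BA and at 35.7 and 34.2 FPKM in TF1-BAR libraries. The log2 fold changes of these 4 genes ran from -0.08 to 0.08, none passed (limma adjusted p from 0.412 to 0.992), and the 95% intervals reached from -0.31 for PPAT to 0.26 for PFAS. ADSL, which acts before inosine monophosphate and again in the adenine branch, was listed at 0.546 and 0.418 FPKM in TF1-BA and at 0.580 and 0.446 FPKM in TF1-BAR libraries and was not tested, being below the limit on low values. Of its exon bases 11.1% are shared with the readthrough gene AL022238.4 on the same strand, which received 0 to 2 fragments per library, where ADSL received 46 to 70. How fragments that lie in both were counted is not given in the sources used here, so the level of ADSL is uncertain.

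From inosine monophosphate the guanine branch starts with IMP dehydrogenase, the target of mycophenolate. IMPDH1 stood at 21.9 and 22.3 FPKM in TF1-BA and at 26.7 and 28.0 FPKM in TF1-BAR libraries and rose by 0.30 (SE 0.0647, limma adjusted p = 0.0301). IMPDH2, the more abundant form, stood at 112 and 114 FPKM in TF1-BA and at 110 and 115 FPKM in TF1-BAR libraries, with a 95% interval of the log2 fold change from -0.16 to 0.13. GMPS, the next enzyme, stood at 22.1 and 20.5 FPKM in TF1-BA and at 22.6 and 21.8 FPKM in TF1-BAR libraries. In the adenine branch ADSS stood at 30.9 and 28.7 FPKM in TF1-BA and at 36.9 and 34.2 FPKM in TF1-BAR libraries, which did not overlap. Its log2 fold change of 0.25 did not pass (limma adjusted p = 0.0679). ADSS passed under 4 of 12 alternative settings that kept all libraries, among them the replicate number as a block.

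Purine salvage was lower at HPRT1. This transferase, which recycles hypoxanthine and guanine and activates thiopurines, stood at 65.8 and 60.3 FPKM in TF1-BA and at 50.2 and 42.4 FPKM in TF1-BAR libraries and fell by 0.45 (SE 0.102, limma adjusted p = 0.0351). APRT, which recycles adenine, stood at 35.4 and 35.6 FPKM in TF1-BA and at 32.0 and 32.4 FPKM in TF1-BAR libraries. These did not overlap, and its log2 fold change of -0.14 did not pass (limma adjusted p = 0.142).

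Of the 5 pyrimidine enzymes 1 rose, none fell and 4 did not pass, with 20.0% that passed against 26.9% of all genes tested. At an unadjusted p under 0.05 limma gave 2 higher and 0 lower, 40.0% against 42.2% of all genes. CTPS1, the CTP synthase of proliferating lymphocytes, stood at 12.3 and 12.4 FPKM in TF1-BA and at 14.6 and 15.2 FPKM in TF1-BAR libraries. It rose by 0.26 (SE 0.0675, limma adjusted p = 0.0462) and passed under only 6 of 12 alternative settings that kept all libraries. The value was 0.13 with the trend of GC content and length removed and 0.17 after upper-quartile scaling. UMPS, which makes UMP, stood at 4.20 and 3.53 FPKM in TF1-BA and at 4.88 and 5.14 FPKM in TF1-BAR libraries, a log2 fold change of 0.34 that did not pass (limma adjusted p = 0.0783). CAD, which carries the first 3 steps, stood at 29.7 and 29.0 FPKM in TF1-BA and at 32.4 and 31.5 FPKM in TF1-BAR libraries. The limma adjusted p of CAD was 0.207, although its libraries did not overlap. DHODH, the mitochondrial dehydrogenase of the pathway, stood at 2.63 and 2.16 FPKM in TF1-BA and at 2.35 and 2.37 FPKM in TF1-BAR libraries. CTPS2 stood at 6.28 and 5.52 FPKM in TF1-BA and at 5.49 and 5.80 FPKM in TF1-BAR libraries, and both DHODH and CTPS2 overlapped between the lines.

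Several steps are carried by paralogues, and the difference between the log2 fold changes of the members of a pair was estimated for 7 pairs. Each interval combined the spread of the per-library differences with the spread priors of the limma fit for both genes. The differences are of means of log2(FPKM + 0.5), so they need not equal the log2 change of the ratio of mean FPKM. The ratio of RRM2 to RRM2B in mean FPKM was 2.61 in TF1-BA and 1.48 in TF1-BAR cells, and the difference of their log2 fold changes was -0.79 (95% interval -1.07 to -0.52). That of MTHFD1 to MTHFD1L went from 0.559 to 0.345, a difference of -0.68 (-0.91 to -0.44). The ratio of PRPS1 to PRPS2 went from 1.83 to 2.68, a difference of 0.54 (0.16 to 0.92). IMPDH1 gained on IMPDH2, from 0.195 to 0.244, a difference of 0.31 (0.11 to 0.52), and CTPS1 on CTPS2, from 2.09 to 2.64, a difference of 0.32 (0.02 to 0.62). The intervals of SHMT1 against SHMT2 (-0.27, from -0.55 to 0.01) and of MTHFD2 against MTHFD2L (-0.39, from -0.80 to 0.02) included 0. These intervals are not adjusted for the number of pairs. The exact two-sided permutation test gave p = 0.333 for every pair, which is the smallest value that 2 libraries against 2 allow.

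**Figure D3:**
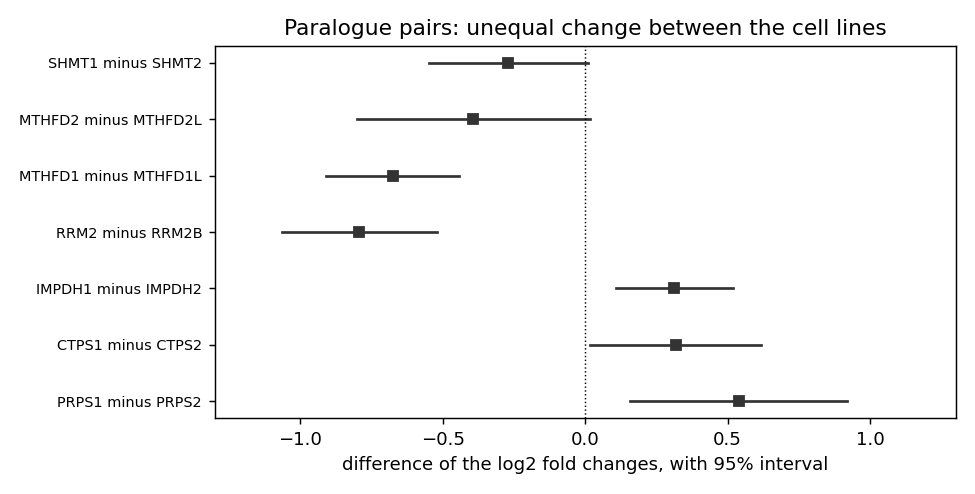
Difference of the log2 fold changes (first gene minus second) in 7 pairs of paralogues, with 95% intervals. The intervals of RRM2 minus RRM2B and MTHFD1 minus MTHFD1L lie below 0, those of the IMPDH, CTPS and PRPS pairs above 0, and those of the SHMT and MTHFD2 pairs include 0.

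Outside the members, 84 further genes of the same pathways were listed by name, of which 81 were matched and 65 tested. Of these 12 rose, 10 fell and 43 did not pass, with 33.8% that passed against the 26.9% of all genes. None of the 65 had an absolute log2 fold change of 1 or more with a limma adjusted p under 0.05. At an unadjusted p under 0.05 limma gave 32, 49.2% against 42.2% of all genes. Their median log2 fold change was 0.03. The largest fall was that of CTH, the lyase that makes cysteine in the transsulfuration pathway, from 90.3 FPKM in both TF1-BA libraries to 48.8 and 45.5 FPKM in TF1-BAR libraries (log2 fold change -0.93, limma adjusted p = 0.00409). GMPR, which returns GMP to IMP, stood at 106 and 105 FPKM in TF1-BA and at 63.2 and 64.2 FPKM in TF1-BAR libraries (-0.73, limma adjusted p = 0.00421). AHCYL1, an AHCY relative, fell by 0.55 and ADK, adenosine kinase, by 0.51. ADK lies on chromosome 10, where the median log2 fold change was -0.35.

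The largest rise was that of AMPD2, AMP deaminase, from 7.55 and 7.73 FPKM in TF1-BA to 14.1 and 16.0 FPKM in TF1-BAR libraries (log2 fold change 0.93, limma adjusted p = 0.00642). CMPK2, a mitochondrial nucleotide kinase, stood at 2.95 and 2.59 FPKM in TF1-BA and at 4.78 and 5.48 FPKM in TF1-BAR libraries (0.78, limma adjusted p = 0.0123). ITPA, which removes inosine triphosphate, and UCKL1, related to uridine kinases, rose by 0.61 and 0.54, and both lie on chromosome 20. Relative to its median they stood at 0.22 and 0.15.

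Genes known to regulate the pathway were at these levels beside the members. Of 8 regulators 5 rose and 0 fell in limma, where 16.3% and 10.5% of all genes tested did. None of the 8 was lower at an unadjusted p under 0.05. MYC, which drives many genes of nucleotide synthesis, stood at 198 and 168 FPKM in TF1-BA and at 242 and 256 FPKM in TF1-BAR libraries (log2 fold change 0.45, limma adjusted p = 0.0292). MYCN stood at 0.618 and 0.870 FPKM in TF1-BA and at 2.61 and 3.08 FPKM in TF1-BAR libraries (1.43, limma adjusted p = 0.00828). E2F1, on chromosome 20, E2F2 and E2F3, which act at entry into S phase, rose by 0.79, 0.72 and 0.39. MYCN and E2F1 passed in each of the 12 alternatives that kept all libraries, E2F3 in 11, E2F2 in 10 and MYC in 9. ATF4, the factor of the amino acid response that is known to drive PHGDH, PSAT1, PSPH, SHMT2 and MTHFD2, stood at 292 and 299 FPKM in TF1-BA and at 291 and 277 FPKM in TF1-BAR libraries. Its transcript did not pass (limma adjusted p = 0.496), and its protein was not measured here.

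Of 8 further genes known as ATF4 targets 7 fell and 0 rose in limma, where 10.5% and 16.3% of all genes tested did. None of the 8 was higher at an unadjusted p under 0.05, and their median log2 fold change was -0.60 against 0.07 for all genes. DDIT3, a stress factor, had the lowest value, at 41.6 and 45.9 FPKM in TF1-BA and 10.9 and 9.93 FPKM in TF1-BAR libraries (-2.02, limma adjusted p = 0.00174). DDIT4 (-1.15, on chromosome 10), ASNS, asparagine synthetase (-0.96), CHAC1 (-0.78), SESN2 (-0.42), VLDLR (-0.36) and ATF3 (-0.34) fell as well. Under the 12 alternatives that kept all libraries DDIT3, DDIT4, ASNS and CHAC1 passed in each, SESN2 in 9 and VLDLR and ATF3 in 8. TRIB3, on chromosome 20, stood at 132 and 143 FPKM in TF1-BA and at 145 and 167 FPKM in TF1-BAR libraries and did not pass (limma adjusted p = 0.197). Among the members, PSAT1 (-0.44), PSPH (-0.37), MTHFD2 (-0.46) and PHGDH (-0.30, not passed) had negative log2 fold changes. Those of SHMT2 (0.12, not passed) and MTHFD1L (0.32) were positive. The part of ATF4 in these differences was not tested.

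Of 15 genes of proliferation 2 rose and 5 fell, 13.3% and 33.3%, where 16.3% and 10.5% of all genes tested did. The other 8 did not pass, and the median log2 fold change of the 15 was -0.15. MKI67, a marker of cycling cells, stood at 33.7 and 33.9 FPKM in TF1-BA and at 17.4 and 19.1 FPKM in TF1-BAR libraries (-0.87, limma adjusted p = 0.00534). CDK1 had a log2 fold change of -1.49 (limma adjusted p = 0.00595), and both MKI67 and CDK1 lie on chromosome 10. The cyclins CCNB1, CCNE2 and CCNA2 fell by 0.70, 0.67 and 0.54. PCNA, the DNA polymerase clamp, on chromosome 20, and MCM7, of the replicative helicase, rose by 0.38 and 0.54. Under the same 12 alternatives MKI67 and CDK1 passed in each, MCM7 in 11, CCNA2 in 10, CCNB1 in 9, CCNE2 in 8 and PCNA in 7. The helicase genes MCM2 to MCM6 did not pass. Among the members, RRM1 and RRM2 had log2 fold changes of -0.33 and -0.80, and TYMS and TK1 did not pass. In bulk RNA fewer cells in a phase of the cycle and less RNA per cell cannot be told apart, and the part of the cell cycle in these differences was not tested.

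**Figure D4:**
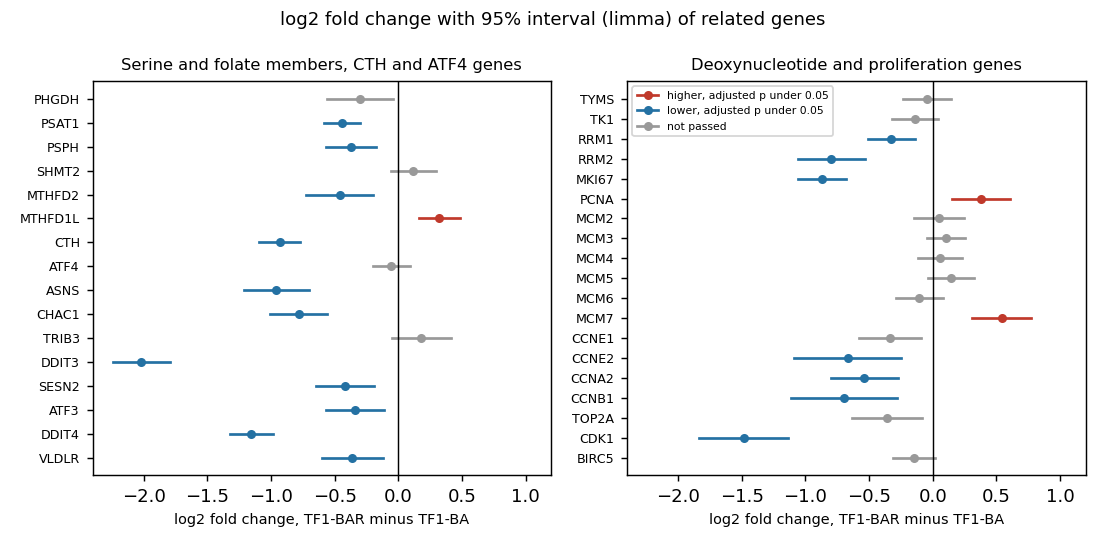
Log2 fold change (TF1-BAR minus TF1-BA) with 95% intervals of serine synthesis members, SHMT2, MTHFD2, MTHFD1L, CTH, ATF4 and other ATF4 targets (left) and of 4 deoxynucleotide members and proliferation genes (right). On the left SHMT2, MTHFD1L and TRIB3 lie above 0, where only MTHFD1L passed, and the others lie below 0, where all except PHGDH and ATF4 passed; on the right RRM1, RRM2, MKI67, CDK1 and 3 cyclins fell while PCNA and MCM7 rose.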

How the data were processed

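RNA was extracted with TRIzol from TF1-BA and TF1-BAR cells (2 libraries each), prepared with a NEBNext Ultra kit and sequenced as paired ends. The submitters' processing notes name TopHat2 2.0.13, Cufflinks 2.2.0 and Cuffdiff 2.2.0 with GRCh38; the annotation release and the use of strand are not given in the sources used here. The deposited table holds FPKM per gene and library, as the authors computed them, with no other values per sample (0 columns were left unused). The authors tested counts with DESeq2 at an adjusted p under 0.05 and a log2 fold change of 1 or more in size; these counts were not analysed here.

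FPKM were tested with limma 3.58.1 in R 4.3.3 (lmFit, eBayes with trend, two-sided) as log2(FPKM + 0.5). Genes with a mean of at least 0.5 FPKM over the 4 libraries were kept (15519 of 32673), with Benjamini-Hochberg adjustment over all of them. Fold changes are on the log2(FPKM + pseudocount) scale, which understates the change of low genes. The low values step in whole fragments, which gave the library sizes and fragment counts: at a fitted or annotated (GENCODE 44) exon length all 30853 genes above 0 came out whole within 0.001, and limma voom was run on them. Paralogue pairs were compared by the per-library difference of the log2 values. Alternatives were other pseudocounts (0.1 and 1 FPKM), filters, scalings, spread models, GC and length correction, a replicate block, the chromosome median and each library left out in turn.

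The members and gene lists were chosen with earlier results of these data known. All members were named with their values; of the other pathway genes, the 5 largest changes in each direction that passed (2 of these genes are not reported here), and of the regulator, ATF4 target and proliferation lists those that passed and MYC, MYCN, ATF4 and MKI67. The line markers given with values, TRIB3, the MCM genes and the shared-exon values were named after their values were seen, as was the CCAAT box chosen. Promoters were the 250 bases before the start that a RefSeq table gives, which can differ from the start in the deposited table; the count of motifs in windows near the latter was added after seeing the data. Shares of shared exons come from GENCODE 44. Analysis tables were made with Python 3.11.15 and pandas 2.3.3.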

Additional observations from a re-analysis of the deposited data

How the results depend on the processing

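Of the 16 members that passed, none changed direction in any refit, and MAT2A, AHCY and RRM2 passed under all 12 alternatives that kept every library, PSAT1 under 11, CDA and CTPS1 under 6 and the other members under 8 to 10. The count of members that rose was 7 and became 2 with upper-quartile scaling, 4 with quantile normalization, 3 with no filter on low values and 2 with no trend of the spread. The share of all genes that rose was 12.2%, 13.2%, 2.76% and 12.4% in these settings, beside 5.0%, 10.0%, 7.32% and 5.0% of the members. The count that fell was 9 and became 2 on the TPM scale, 1 with no filter and 2 with no trend. The share of all genes that fell was 5.59%, 1.93% and 7.47% in these settings, beside 4.88%, 2.44% and 5.0% of the members. Of the other pathway genes the 12 that rose became 20 with limma voom and 4 with no filter, where 22.6% and 2.76% of all genes rose. The 10 that fell became 6 on the TPM scale, 6 with no filter and 6 with no trend, where 5.59%, 1.93% and 7.47% of all genes fell. With no filter 30853 genes were tested and 1446 called. The cause of the other shifts was not tested. With each library left out in turn, the members that rose numbered 0 to 4 and those that fell 0 to 7, and the other pathway genes 0 to 7 and 0 to 10, with an arm of 1 library assumed to vary like the other.

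No member or regulator that turned direction in a refit had passed. With GC content and length removed the values were RRM2B 0.095, PPAT 0.024, PFAS -0.049, PAICS -0.049 and CAD -0.016. On the TPM scale they were TYMS 0.017, RRM2B 0.065, PRPS1 0.0075, IMPDH2 0.057, DHODH 0.050, CTPS2 0.0086 and ATF4 0.013. With upper-quartile scaling they were DUT -0.046, PFAS -0.024, PAICS -0.091, ATIC -0.012 and GMPS -0.030. With each library left out in turn, 7 members crossed 0: MTHFD2L ranged from -0.30 to 0.16, DUT from -0.015 to 0.11, RRM2B from -0.16 to 0.15, PAICS from -0.056 to 0.058, IMPDH2 from -0.043 to 0.020, DHODH from -0.13 to 0.11 and CTPS2 from -0.14 to 0.031. Subtracting the chromosome median, which is neither a refit nor a test, put SAMHD1, which had passed, at -0.0027. It put DUT and PFAS, which had not passed, at -0.037 and -0.047.

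With the replicate number as a block 7 members rose and 10 fell, and 10 other pathway genes rose and 10 fell, with 3969 calls over all genes against 4167. The 7 that rose were not the same genes: CTPS1 did not pass with the block and ADSS did. DCK was added to those that fell. The numbers are not stated to pair the libraries, and the correlation of the deviations of same-numbered libraries was 0.0646. With 2 libraries per line, no member with a log2 fold change smaller in size than that of CTPS1 (0.26) passed, and the low levels of CDA, ADSL and MTHFD2L limit their precision further.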
